A study of Mus musculus with 49 samples.

Results

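The genes described here are 10 surface receptors and markers that CD8+ T cells can share with natural killer (NK) cells or gain with memory: Klrd1, Klrc1, Klrc2, Klrk1, Klre1, Klrg1, Klrb1c, Ncr1, Cd44 and Ly6c2. They were chosen by gene symbol from the 23992 symbols of the expression tables, each read from the longest of its RefSeq transcripts. All 10 were among the 15566 genes with enough reads to be tested. Splenic CD8+ T cells came from mice of 2 knockin (KI) lines, made with CRISPR/Cas9 in B6D2F1 zygotes and then backcrossed to C57BL/6J, the strain the labels give. In the Stat5a KI line the codon of the tyrosine that JAK kinases phosphorylate in STAT5A was changed to phenylalanine on both alleles, the Stat5b KI line carried the matching change in STAT5B, and each line was compared with its own wild-type (WT) littermates. These groups are called STAT5A WT, STAT5A KI, STAT5B WT and STAT5B KI. Cells were taken before culture (0 hr) or after 4, 24 and 48 hr with 500 IU/ml of recombinant human IL-2, which gave 16 groups of 3 libraries. No culture without IL-2 was sequenced at the later times, so IL-2 and time in culture cannot be told apart. The change is germline, the mice were adults of both sexes, and the ages and sexes of single groups were not given in the sources used here. The labels do not say that the libraries of a group came from separate mice, so the p-values measure the spread between these libraries, which may be technical.

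Of the 48 libraries, 47 were used. They held between 17369112 and 60200653 reads on the longest transcripts (median 41410666). Replicate 3 of STAT5A KI at 4 hr held 1028515 and was left out, so that group had 2 libraries. Levels are given as normalized RPKM, that is, reads divided by transcript length and by the library's TMM-normalized size, so that levels can be set side by side between genes and libraries. Differences are log2 fold changes, tested by quasi-likelihood in edgeR with p-values adjusted over all tested genes by the Benjamini-Hochberg method, and a gene is said to have risen or fallen only where the adjusted p was at most 0.05 and the change at least 2-fold. Where KI and WT cells of the same line and time are compared, risen means higher in KI cells and fallen means lower. Neither word then stands for a change over time.

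NK cells and memory CD8+ T cells read ligands on other cells through lectin-like receptors encoded together in the NK gene complex. Klrd1 encodes CD94, which reaches the surface paired with the inhibitory NKG2A (Klrc1) or the activating NKG2C (Klrc2) and binds the MHC class Ib molecule Qa-1 (H2-T23). Klrk1 encodes NKG2D, an activating receptor for stress-induced ligands that signals through the adaptor DAP10 (Hcst), and Klre1 encodes KLRE1, which pairs with KLRI1 or KLRI2. Klrb1c encodes NK1.1, Ncr1 the NK cell receptor NKp46, and Klrg1 an inhibitory receptor for cadherins that marks differentiated effector cells. Cd44, a hyaluronan receptor, and Ly6c2, a GPI-anchored protein, are standard surface markers of memory-phenotype CD8+ T cells. STAT5A and STAT5B are the transcription factors that carry the signal of IL-2 and IL-15, cytokines on which NK cells and memory-phenotype CD8+ T cells depend.

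Of these genes, 7 are encoded on chromosome 6. In GRCm38, Klre1 lies at chr6:129559365-129585828, Klrd1 at chr6:129588092-129598775, Klrk1 at chr6:129610323-129623903, Klrc2 at chr6:129649602-129660737 and Klrc1 at chr6:129666015-129682852, which places them within 123488 bases, with Klrc3 between Klrk1 and Klrc2. Klrb1c at chr6:128778485-128788641 and Klrg1 at chr6:122270596-122282833 are on the same chromosome, farther off. The others are at chr2:102811141-102901669 (Cd44), chr7:4337715-4345184 (Ncr1) and chr15:75108161-75112066 (Ly6c2). Neighbouring copies matter for the counts, because only reads with a single place in the genome were kept. The coding sequences of Klrc1 and Klrc2 were identical at 83.1% of aligned bases, those of Klrc2 and Klrc3 at 95.3%, and those of Ly6c2 and Ly6c1 at 97.7%. The following 90-base coding stretches, read from the RefSeq annotation of GRCm38 on the coding strand, 5′ to 3′, show what a read can and cannot tell apart. Capitals mark bases that differ within a pair. The first stretch is the same in both genes (coding bases 363 to 452 of Klrc1 and 345 to 434 of Klrc2), the next pair is the stretch in which these genes differ most (40 bases), and the last pair is the stretch in which Ly6c2 and Ly6c1 differ most (6 bases):
Klrc1 and Klrc2, identical stretch: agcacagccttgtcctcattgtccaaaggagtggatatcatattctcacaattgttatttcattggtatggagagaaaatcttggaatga
Klrc1, bases 264 to 353: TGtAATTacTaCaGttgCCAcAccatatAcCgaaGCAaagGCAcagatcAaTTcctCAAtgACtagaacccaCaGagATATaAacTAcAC
Klrc2, bases 246 to 335: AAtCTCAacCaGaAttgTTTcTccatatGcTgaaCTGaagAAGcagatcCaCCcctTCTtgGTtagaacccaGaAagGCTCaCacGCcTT
Ly6c2, bases 1 to 90: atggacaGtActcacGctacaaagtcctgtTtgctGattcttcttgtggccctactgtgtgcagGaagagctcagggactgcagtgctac
Ly6c1, bases 1 to 90: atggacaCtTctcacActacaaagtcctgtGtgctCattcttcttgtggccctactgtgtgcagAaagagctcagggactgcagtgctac

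Of all 50-base windows within the exons of Klrc2, 44.4% occur once in GRCm38, against 53.7% for Klrc1, 68.8% for Ly6c2, 76.5% for Klrk1 and 96.4% for Klrb1c. For Klrd1, Klre1, Klrg1, Ncr1 and Cd44 the share was 100%. The levels of Klrc1, Klrc2, Klrk1 and Ly6c2 are therefore uncertain relative to other genes. Promoter sequences were listed for 8 of the genes (all but Klrd1 and Klrg1). None of their 12 promoter windows, from 250 bases before to 50 bases after a RefSeq start in GRCm38.p6, held the palindromic STAT motif TTCNNNGAA, which reads the same on both strands and was found in 8.3% of the 32851 windows of all genes.

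The libraries were first examined for their cells. Cd8b1 was the most abundant of 5 CD8 T cell markers in 7 of the 8 groups at 0 and 48 hr, and the summed level of the 5 ran from 1241 to 2129 normalized RPKM over those groups' libraries. Between KI and WT cells the log2 differences of these 5 genes lay between -0.47 and 0.73. The CD8+ T cells had been purified with an isolation kit, but other cells contributed RNA as well, and more so in KI libraries. The summed level of 6 B cell markers (most abundant gene Cd79a) was 79.0 ± 6.22 (SD, n = 3) normalized RPKM in STAT5B WT cells at 0 hr and 297 ± 5.05 in STAT5B KI cells, and at 48 hr the sums were 15.1 ± 1.31 and 146.6 ± 5.95. In the STAT5A line they were 175 ± 83.2 and 384 ± 35.5 at 0 hr, and at 48 hr 34.3 ± 16.4 in WT cells and 129.6, 120.6 and 142.9 in the KI libraries. Monocyte and macrophage markers summed to 30.6 ± 0.143 in STAT5B WT and 117.9 ± 20.7 in STAT5B KI cells at 48 hr, and to 28.3 ± 1.56 and 62.0 ± 29.6 in the STAT5A line. The most abundant gene of that list was Lyz2 in the KI cells of both lines at 48 hr and Ccr2, which T cells also express, in the WT cells, where Ccr2 averaged 25.3 of the 30.6 in the STAT5B line and 19.8 of the 28.3 in the STAT5A line. For 14 NK cell markers other than the 10 genes described, the sum was 148.7 ± 18.5 in STAT5B WT and 144.8 ± 11.3 in STAT5B KI cells at 48 hr (most abundant genes Klra7 and Tyrobp), and 181 ± 14.2 and 174 ± 8.32 in the STAT5A line (most abundant gene Gzma). These sums are over genes that went both ways, since 5 of the 14 had risen (among them Klrb1b, Tyrobp and Sh2d1b1) and Klra7 had fallen in STAT5B KI cells at 48 hr. At 0 hr in the STAT5B line they summed to 155.5 ± 30.6 in WT and 219 ± 40.4 in KI cells, with Tyrobp, an adaptor that myeloid cells also express, the most abundant in both. No marker of any list was at 0 in every library. In bulk RNA, fewer cells of a type and less RNA per cell cannot be told apart, and the part of these cells in the results below was not tested.

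**Figure D1:**
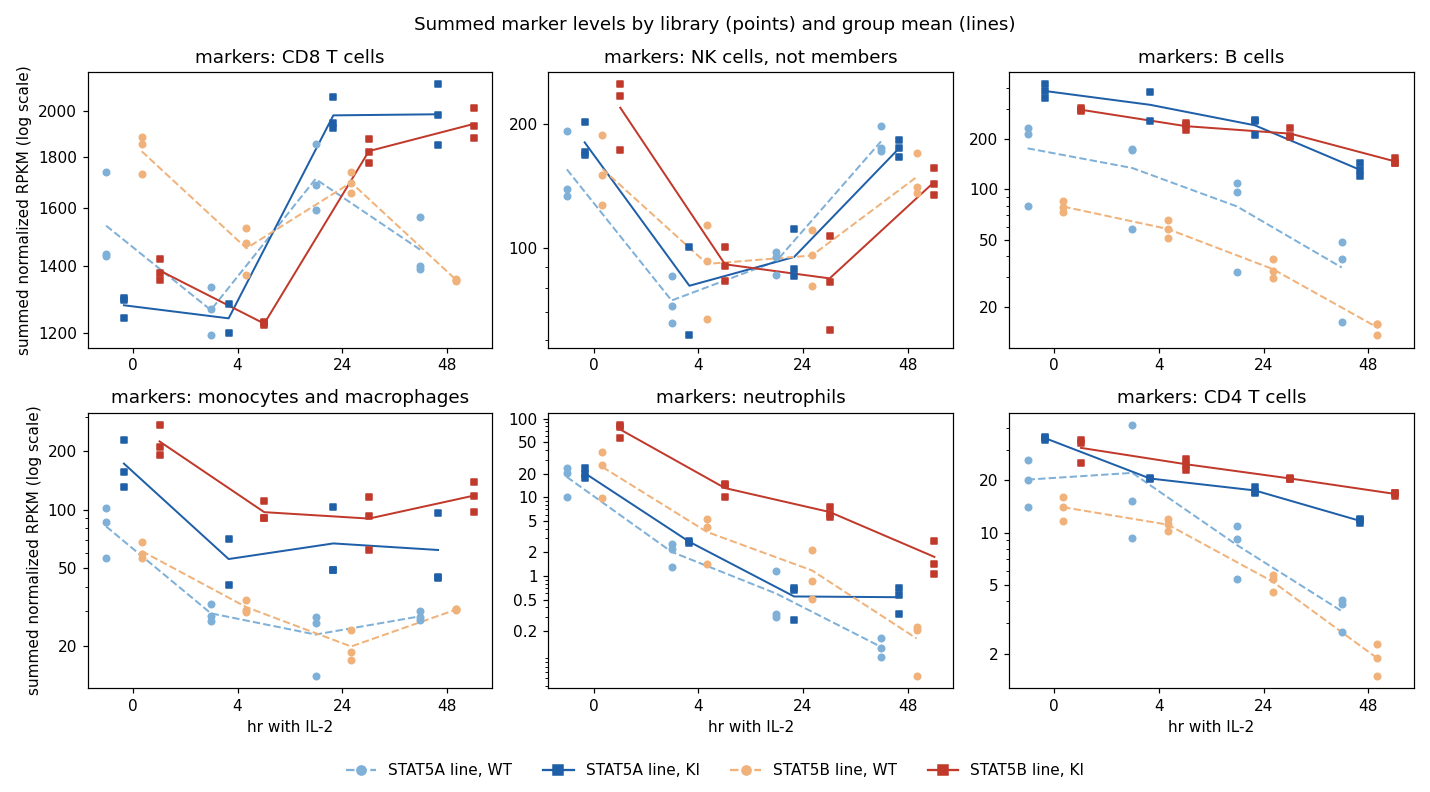
Summed normalized RPKM (log axis) of marker lists of the cell types in the title of each panel against hours with IL-2. Points are libraries, lines join group means, and colour and marker give line and genotype. The B cell sum at 48 hr is 146.6 in STAT5B KI and 15.1 in STAT5B WT cells.

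One set of libraries stood apart. Replicate 3 of STAT5A WT had a B cell sum of 79.9 at 0 hr, against 214 and 233 in replicates 1 and 2, and at 0 hr it had the highest Klrc1 level of its group (12 against 4.90 and 4.83). At 48 hr it was again the highest in Klrc1 (30.3 against 12.5 and 19.6) and the lowest in Ncr1 (3.91 against 9.60 and 6.95). Values without it are given below beside results of the STAT5A line that it moved. Replicate 2 of STAT5A WT at 4 hr had 44.9% of its mapped reads on the longest transcripts, against 68.7% to 84.4% in the other libraries used, and its Ly6c2 level was 167 where replicates 1 and 3 had 61.8 and 54.0.

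At 0 hr the most abundant of the genes in STAT5B WT cells was Ly6c2, at 260.1, 314 and 330.4 normalized RPKM, followed by Klrd1 at 82.8, 75.4 and 74.2 and Cd44 at 26.7, 28.2 and 29.1. Klrk1 (17.3, 21.2 and 15.2), Klre1 (12.2, 16.1 and 10.3) and Klrc1 (11.6, 14.9 and 8.99) came next. Klrk1 lay above Klrc1 without overlap, and Klre1 overlapped both. Klrc2 stood at 6.29, 8.15 and 5.08. In each library Klre1 lay between Klrk1 and Klrc1, but its place cannot be told from the spread. Klrc2 lay below all of these without overlap. Ly6c2, Klrd1 and Cd44 were separated from each other and from the rest without overlap. Klrg1 (1.90, 4.80 and 4.18) and Klrb1c (2.75, 4.44 and 3.03) overlapped at a low level. Ncr1 was the lowest, at 0.554, 0.896 and 1.08. STAT5A WT cells had the same leading genes, with Ly6c2 at 192, 286 and 226, Klrd1 at 55.2, 66.6 and 103.9 and Cd44 at 26.3, 28.9 and 26.0.

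Over the 16 groups, the range of levels differed from gene to gene. The highest group mean was 14.6 times the lowest for Ly6c2 and for Ncr1, 13.9 times for Klre1, 13.4 times for Klrc1 and for Klrb1c and 11.2 times for Klrc2. Klrg1 spanned 6.37 times, Klrk1 4.23 times and Cd44 3.24 times. Klrd1 moved least, by 1.85 times, between STAT5A KI cells at 0 hr (48.4, 52.4 and 49.3) and STAT5A WT cells at 4 hr (84.6, 92.5 and 100.4). For Klrc1, Klrc2, Klrk1, Klre1 and Ly6c2 the highest group was STAT5B WT at 48 hr. Ncr1 was highest in STAT5A KI cells at 48 hr (9.93, 12.8 and 14.1).

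**Figure D2:**
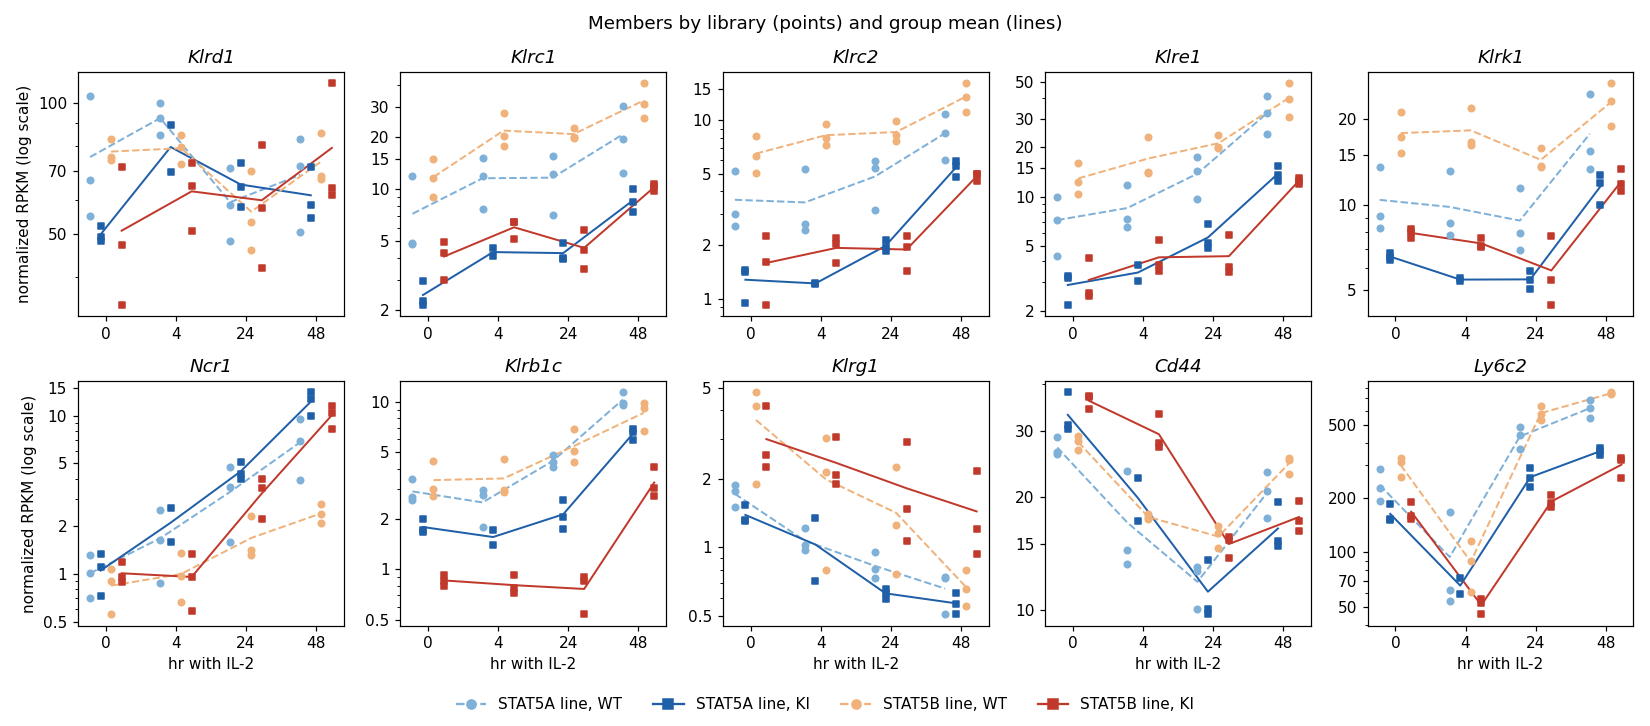
Normalized RPKM (log axis) of each of the 10 genes against hours with IL-2, one panel a gene. Points are libraries, lines join group means, and colour and marker give line and genotype. KI points lie below WT points of the same line and time in the panels of Klrc1, Klrc2, Klrk1, Klre1 and Klrb1c.

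The next comparison asks how these genes respond to IL-2 in WT cells. At 48 hr, 6 of the 10 genes had risen over 0 hr in each line, and 1 had fallen. Among all tested genes 14.3% rose and 22.3% fell in STAT5A WT cells, and 14.6% rose and 20.7% fell in STAT5B WT cells. The median log2 change of the 10 genes was 1.31 in STAT5A WT and 1.19 in STAT5B WT cells, beside -0.12 and -0.13 over all tested genes. The 6 that rose were the same in both lines, Klrc1, Klrc2, Klre1, Klrb1c, Ncr1 and Ly6c2, and the gene that fell was Klrg1. The comparisons at 4, 24 and 48 hr share their 0 hr libraries.

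Among the lectin-like receptors, Klre1 had the largest rise in STAT5B WT cells, from 12.2, 16.1 and 10.3 to 39.8, 49.6 and 30.6 normalized RPKM. Its log2 fold change was 1.64 ± 0.27 (SE, edgeR adjusted p = 1.77e-06), and in STAT5A WT cells 2.18 ± 0.28 (edgeR adjusted p = 1.12e-08). The libraries at 48 hr all lay above those at 0 hr. Klrc1, the inhibitory partner of CD94, rose from 11.6, 14.9 and 8.99 to 31.2, 41.3 and 25.8 in STAT5B WT cells, a log2 change of 1.47 ± 0.30 (edgeR adjusted p = 4.42e-05). For its activating counterpart Klrc2 the levels were 6.29, 8.15 and 5.08 before and 13.6, 16.2 and 11.1 after, a log2 change of 1.07 ± 0.27 (edgeR adjusted p = 0.000709) that was just under 2-fold (0.99) without replicate 3 at 0 hr. Their shared partner Klrd1 showed no such change, with 67.0, 85.6 and 68.2 at 48 hr and a log2 difference of -0.07 ± 0.24. Klrk1 went from 17.3, 21.2 and 15.2 to 23.2, 26.9 and 18.9, with overlap, and was not called in either line (log2 0.36 ± 0.20 in STAT5B WT and 0.78 ± 0.21 in STAT5A WT cells). Without STAT5A WT replicate 3 at 0 hr, Klrk1 was called in STAT5A WT cells (log2 1.11, edgeR adjusted p = 5.17e-05), and the rise of Klrc1 there was by log2 2.17 in place of 1.51.

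Klrb1c and Ncr1, whose products are used to identify NK cells, were low at 0 hr and rose by 48 hr. Klrb1c went from 2.69, 2.61 and 3.45 to 9.89, 11.4 and 9.52 in STAT5A WT cells (log2 1.81 ± 0.21, edgeR adjusted p = 1.06e-09) and from 2.75, 4.44 and 3.03 to 9.25, 9.86 and 6.69 in STAT5B WT cells (log2 1.34 ± 0.21, edgeR adjusted p = 4.93e-07). In neither line did the 0 and 48 hr libraries overlap. Ncr1 rose from 1.31, 1.02 and 0.708 to 9.60, 6.95 and 3.91 in STAT5A WT cells (log2 2.76 ± 0.38, edgeR adjusted p = 4.54e-08) and from 0.554, 0.896 and 1.08 to 2.10, 2.39 and 2.77 in STAT5B WT cells (log2 1.52 ± 0.39, edgeR adjusted p = 0.000706). Klrg1, by contrast, fell from 1.90, 4.80 and 4.18 to 0.555, 0.654 and 0.80 in STAT5B WT cells (log2 -2.44 ± 0.41, edgeR adjusted p = 1.81e-06), and by 1.38 on the log2 scale in STAT5A WT cells.

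The memory markers had courses of their own. Ly6c2 fell by 4 hr in every group, from 260.1, 314 and 330.4 to 60.5, 90.1 and 115.9 in STAT5B WT cells (log2 -1.76 ± 0.24, edgeR adjusted p = 8.62e-08), and had risen above the 0 hr level by 48 hr, to 746, 738 and 756 (log2 1.31 ± 0.23, edgeR adjusted p = 5.81e-06). It was the only one of the 10 genes called at 4 hr, in all 4 line and genotype groups, where the share of all tested genes that fell was 11.4% in STAT5A WT, 11.2% in STAT5A KI, 9.89% in STAT5B WT and 8.85% in STAT5B KI cells. Ncr1 in STAT5A KI cells lay just under 2-fold at 4 hr (log2 0.995 ± 0.42, edgeR adjusted p = 0.0444). It was called with no filter on low counts (log2 1.03), with the transcript with most reads and with only the groups compared. The fall of Ly6c2 at 4 hr held in both genotypes: in STAT5B KI cells it was from 189.7, 159 and 152.6 to 55.4, 45.6 and 52.7, a log2 change of -1.71 ± 0.24. In STAT5A WT cells the fall at 4 hr (log2 -1.33 ± 0.24) was under 2-fold without replicate 3 at 4 hr (log2 -0.97), was -2.02 without replicate 2 at 4 hr, the library that stood apart in Ly6c2, and was not called when only the groups compared were fitted (log2 -1.28, edgeR adjusted p = 0.0849). Cd44 was lowest at 24 hr in every line and genotype. In STAT5A WT cells its level went from 26.3, 28.9 and 26.0 at 0 hr to 10.1, 13 and 12.7 at 24 hr (log2 -1.19 ± 0.15, edgeR adjusted p = 1.08e-08) and was 17.6, 20.8 and 23.3 at 48 hr.

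At 24 hr fewer of the genes had passed both thresholds. In STAT5A WT cells Ncr1 had risen and Cd44 and Klrg1 had fallen, where 8.72% of all tested genes rose and 14.2% fell, and the same genes were called in STAT5A KI cells, where 7.36% rose and 13.8% fell. Without STAT5A WT replicate 3 at 0 hr, Klrg1 was not called at 24 hr (log2 -0.96, edgeR adjusted p = 0.0647), while Klrc1 was called at 4 and 24 hr and Klre1 at 24 hr (log2 1.29 for each at 24 hr). The Klrg1 calls at 24 hr were also lost without STAT5A WT replicate 1 or 2 at 24 hr and, in KI cells, without STAT5A KI replicate 2 (edgeR adjusted p = 0.0653, 0.0713 and 0.0519). In STAT5B WT cells Klrg1 was the only call (log2 -1.35 ± 0.38, edgeR adjusted p = 0.00255, and -0.99 without replicate 1 at 24 hr), with 9.07% of all tested genes higher and 13.5% lower. Ncr1 (log2 1.00 ± 0.39, edgeR adjusted p = 0.0262) and Ly6c2 (log2 0.95 ± 0.23, edgeR adjusted p = 0.0006) lay just under 2-fold there, and both were called with no filter on low counts (log2 1.08 and 1.02). In STAT5B KI cells Ncr1 was higher (log2 1.67 ± 0.38, edgeR adjusted p = 0.000363) and Cd44 lower (log2 -1.27 ± 0.15, edgeR adjusted p = 4.87e-09), where 4.59% of all tested genes rose and 11.2% fell.

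**Figure D3:**
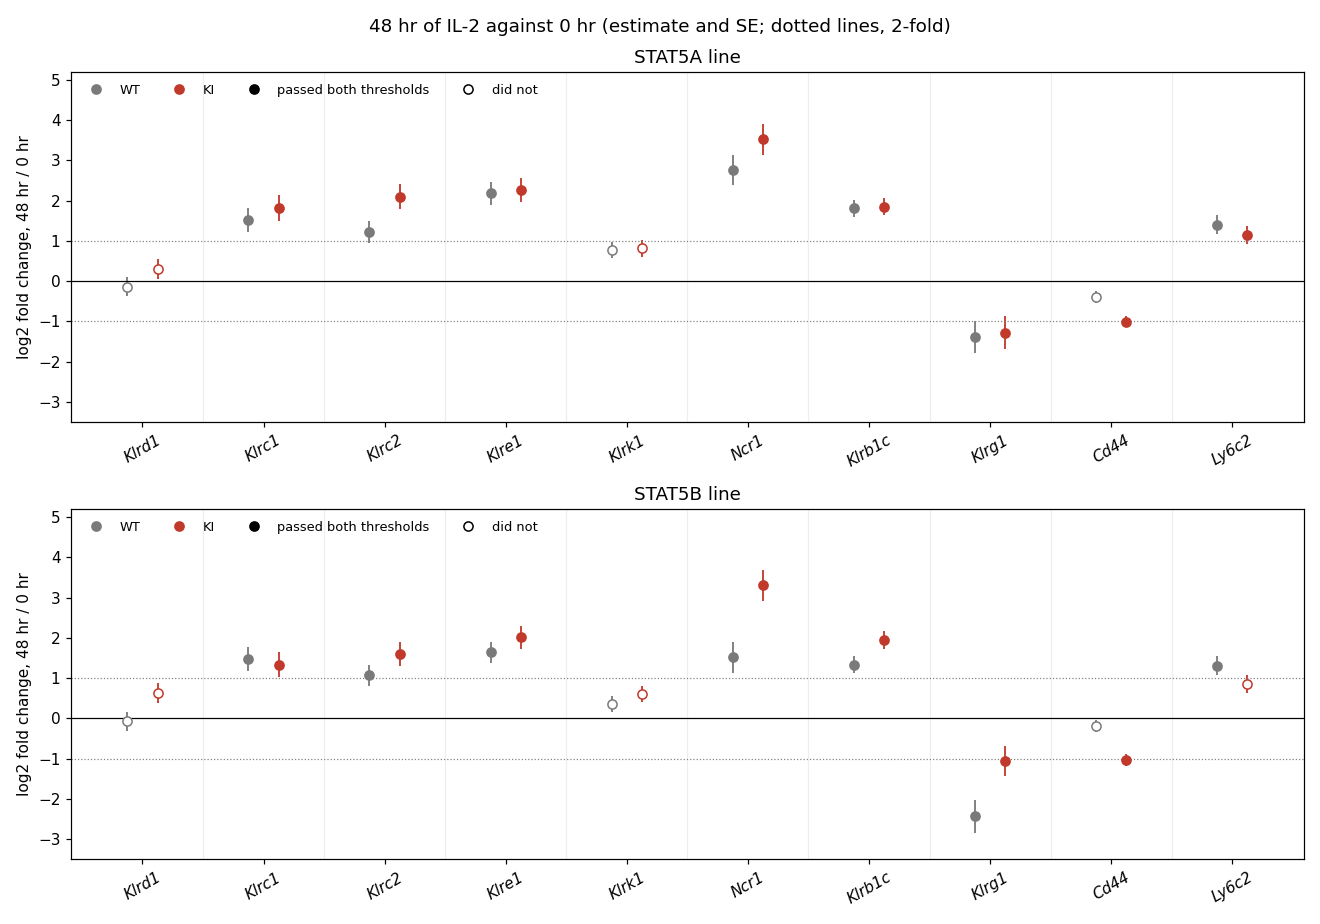
Log2 fold change of each of the 10 genes at 48 hr with IL-2 against 0 hr, in WT and KI cells of each line. Points are edgeR estimates, bars are standard errors, and dotted lines mark a 2-fold change. Ncr1 has the highest estimate of the 10 in KI cells of both lines (3.53 and 3.31), and Klrg1 lies below 0 in all 4 groups.

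Most of the same genes rose in KI cells. At 48 hr, 6 of the 10 genes had risen and 2 had fallen in STAT5A KI cells (9.31% and 16.7% of all tested genes), and 5 had risen and 2 had fallen in STAT5B KI cells (5.56% and 13.2%). Klre1 rose in STAT5B KI cells from 4.20, 2.46 and 2.58 to 13, 12.4 and 11.9 (log2 2.01 ± 0.29, edgeR adjusted p = 4.26e-07). After 48 hr with IL-2 its level in STAT5B KI cells thus overlapped with that of STAT5B WT cells before culture. Klrb1c rose in STAT5B KI cells from 0.854, 0.924 and 0.798 to 4.11, 3.05 and 2.74 (log2 1.94 ± 0.23, edgeR adjusted p = 4.19e-09). Ly6c2 rose in STAT5A KI cells, from 185.3, 152.6 and 150.3 to 372, 362 and 344 (log2 1.14 ± 0.23, edgeR adjusted p = 6.03e-05). In STAT5B KI cells its change from 189.7, 159 and 152.6 to 331, 322 and 255 was under 2-fold (log2 0.86 ± 0.23). Cd44 had fallen at 48 hr in the KI cells of both lines (log2 -1.0 ± 0.15 for STAT5A KI and -1.03 ± 0.15 for STAT5B KI cells), and was not called in the WT cells of either line (-0.40 ± 0.15 and -0.19 ± 0.15). The KI calls lay at the 2-fold threshold, and both were under it with no filter on low counts (log2 -0.94 and -0.96), with the transcript with most reads, with all 48 libraries and with limma. The fall of Klrg1 in STAT5B KI cells (log2 -1.06) was likewise not called with no filter (log2 -0.99), with all 48 libraries or with limma, nor without KI replicate 1 at 0 hr (log2 -0.74) or KI replicate 2 or 3 at 48 hr (log2 -0.77 and -0.90).

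Next, KI cells were compared with WT cells at each time. In STAT5B KI cells, Klrc1, Klrc2, Klre1 and Klrb1c were lower at all 4 times, Klrk1 was lower at 0, 4 and 24 hr, and Ly6c2 was lower at 24 and 48 hr, while Ncr1 and Klrg1 were higher at 48 hr. In STAT5A KI cells Klrc1 and Klre1 were lower at all 4 times, Klrc2 at 0, 4 and 24 hr and Klrb1c at 24 hr. Klrd1 and Cd44 were called at no time in either line. Levels of the lectin-like receptors in STAT5B KI cells were down to 14.0% of the STAT5B WT mean, for Klrb1c at 24 hr.

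In numbers, 5, 5, 6 and 5 of the 10 genes fell in STAT5B KI cells at 0, 4, 24 and 48 hr, beside 0.604%, 1.23%, 5.77% and 9.81% of all tested genes. By the same edgeR test 0, 0, 0 and 2 genes rose (1, 1 and 1 with a positive difference at an unadjusted p under 0.05 at 0, 4 and 24 hr, and also 0 by DESeq2), beside 7.38%, 9.2%, 10.9% and 16.5% of all tested genes. In STAT5A KI cells 3, 3, 4 and 2 of the 10 fell, beside 0.18%, 4.16%, 1.24% and 2.43% of all tested genes, and 0 rose at any time (1 at an unadjusted p under 0.05, Ncr1 at 48 hr, and 0 by DESeq2), beside 0.861%, 2.47%, 3.21% and 6.35%. Median log2 differences of the 10 genes were -1.01, -1.06, -1.45 and -1.11 in the STAT5B line and -0.63, -0.61, -0.72 and -0.63 in the STAT5A line, where the median over all tested genes lay between -0.03 and 0.10. Every KI library lay below every WT library of the same line and time for 7, 6, 6 and 7 of the 10 genes in the STAT5B line, beside 20.4%, 28.5%, 31.7% and 35.8% of all tested genes, and for 7, 5, 7 and 6 in the STAT5A line, beside 8.54%, 11.7%, 20.3% and 30.5%. Klrc1, Klrc2, Klrk1, Klre1 and Klrb1c were separated in this way in all 8 comparisons.

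**Figure D4:**
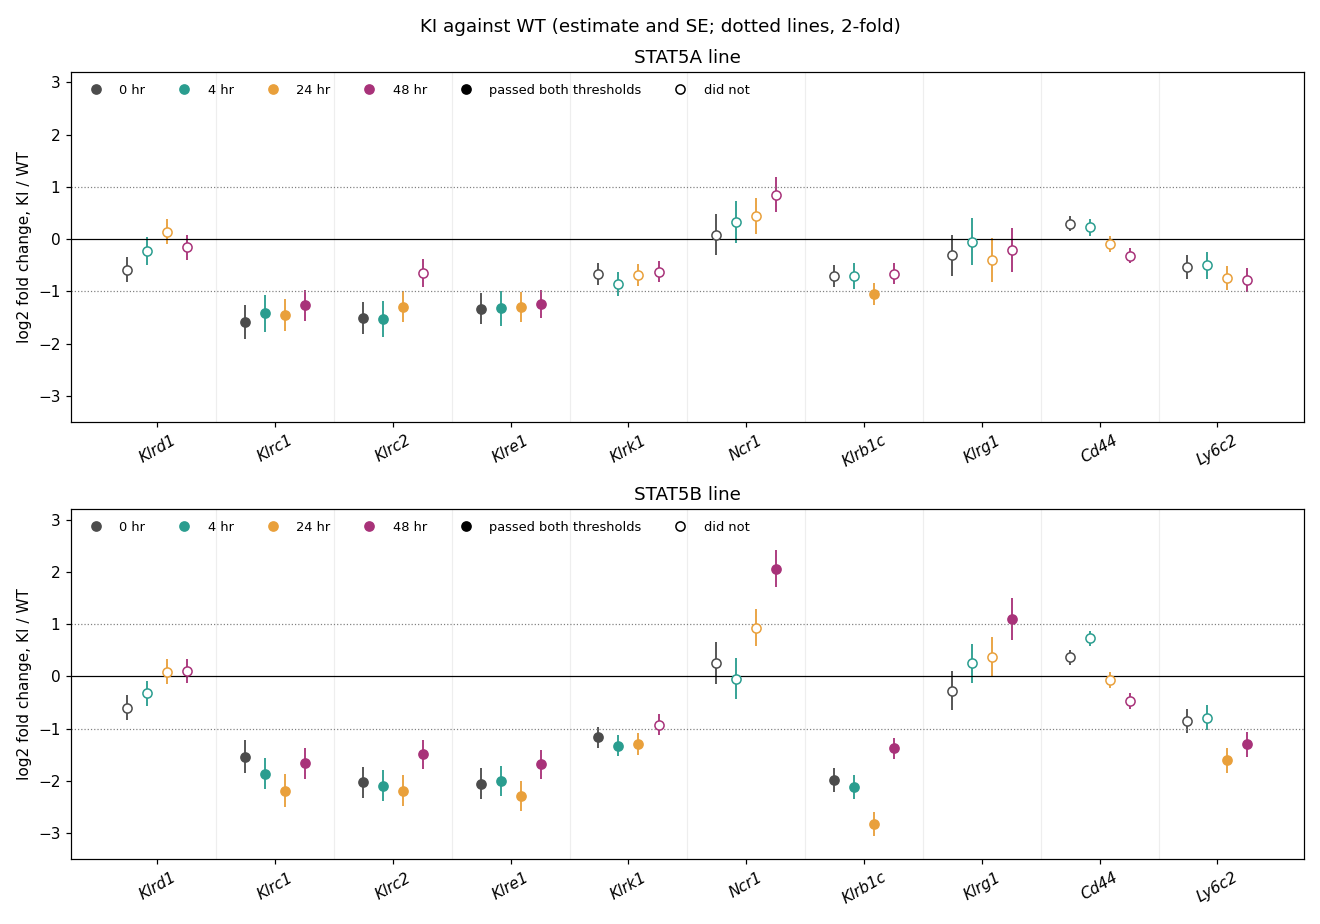
Log2 fold change of each of the 10 genes in KI against WT cells at 0, 4, 24 and 48 hr, one panel a line. Points are edgeR estimates, bars are standard errors, and dotted lines mark a 2-fold change. In the STAT5B line Klrb1c has the lowest estimate (-2.83 at 24 hr) and Ncr1 the highest (2.06 at 48 hr).

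The CD94 and NKG2 genes differed among themselves. Klrc1 was at 4.31, 3.0 and 4.94 in STAT5B KI cells at 0 hr, against 11.6, 14.9 and 8.99 in STAT5B WT cells, a log2 difference of -1.54 ± 0.31 (edgeR adjusted p = 0.000394). After 24 hr the values were 5.81, 4.46 and 3.48 against 19.8, 22.7 and 20.1 (log2 -2.19 ± 0.31, edgeR adjusted p = 2.75e-07), and after 48 hr 10.7, 9.78 and 10.5 against 31.2, 41.3 and 25.8 (log2 -1.67 ± 0.30, edgeR adjusted p = 9.59e-06). No KI library reached a WT library at any of these times. Klrc2 was at 2.24, 0.922 and 1.60 in STAT5B KI and 6.29, 8.15 and 5.08 in STAT5B WT cells at 0 hr (log2 -2.03 ± 0.30, edgeR adjusted p = 7.86e-06), and at 5.01, 4.98 and 4.55 against 13.6, 16.2 and 11.1 at 48 hr (log2 -1.49 ± 0.28, edgeR adjusted p = 1.34e-05). Klrd1, which encodes the partner of both, gave another picture: at 48 hr its values were 64.0, 61.6 and 111.4 in STAT5B KI and 67.0, 85.6 and 68.2 in STAT5B WT cells, which overlap, with a log2 difference of 0.10 ± 0.24. Its furthest estimate in a KI comparison was at 0 hr in the STAT5B line, where 47.4, 34.4 and 71.3 lay below 82.8, 75.4 and 74.2 (log2 -0.60 ± 0.24, edgeR adjusted p = 0.0655).

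In the STAT5A line Klrc1 was at 2.97, 2.14 and 2.25 in KI and 4.90, 4.83 and 12 in WT cells at 0 hr (log2 -1.58 ± 0.32, edgeR adjusted p = 0.005), and at 10.1, 7.40 and 8.49 against 12.5, 19.6 and 30.3 at 48 hr (log2 -1.27 ± 0.30, edgeR adjusted p = 0.000674). The WT values spread widely, with replicate 3 the highest. Without that replicate at 0 hr, none of the 3 calls at 0 hr held (Klrc1 log2 -1.02, Klrc2 -1.15 and Klre1 -1.02, with edgeR adjusted p = 0.148, 0.112 and 0.148), and without it at 48 hr the Klrc1 difference was -0.94. When only STAT5A KI and WT libraries of the same time were fitted, the 3 calls at 0 hr and the 3 at 4 hr, where the KI group had 2 libraries, were also lost (edgeR adjusted p from 0.084 to 0.735).

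Klre1 was the most reduced of the clustered genes in STAT5B KI cells at 24 hr, at 5.84, 3.68 and 3.43 against 20.0, 23.9 and 19.9 (log2 -2.30 ± 0.29, edgeR adjusted p = 2.17e-08), or 20.3% of the WT mean. At 0 hr its values were 4.20, 2.46 and 2.58 against 12.2, 16.1 and 10.3 (log2 -2.06 ± 0.30, edgeR adjusted p = 5.74e-06). In the STAT5A line they were 15.4, 12.5 and 13.5 in KI and 24.1, 32.4 and 41.5 in WT cells at 48 hr (log2 -1.24 ± 0.27, edgeR adjusted p = 0.000248). All windows of this gene are single in the genome, so its counts are not shared with a copy. Klrk1, the NKG2D gene, had smaller differences: 8.22, 7.64 and 8.01 in STAT5B KI against 17.3, 21.2 and 15.2 in STAT5B WT cells at 0 hr (log2 -1.17 ± 0.21, edgeR adjusted p = 9.06e-05), and 13.4, 11.2 and 11.8 against 23.2, 26.9 and 18.9 at 48 hr, where the difference stayed under 2-fold (log2 -0.92 ± 0.21, edgeR adjusted p = 0.000179). In STAT5A KI cells Klrk1 lay between 55.4% and 65.2% of the WT mean over the 4 times and was not called.

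Klrb1c, the NK1.1 gene, had the lowest KI level relative to WT of the 10 genes at 4 and 24 hr in the STAT5B line. In the STAT5B line KI cells had 0.854, 0.924 and 0.798 at 0 hr against 2.75, 4.44 and 3.03 (log2 -1.99 ± 0.23, edgeR adjusted p = 1.43e-07). At 24 hr they had 0.903, 0.851 and 0.538 against 5.08, 6.88 and 4.36 (log2 -2.83 ± 0.23, edgeR adjusted p = 1.04e-12), and the KI libraries at 24 hr overlapped those at 0 hr. By 48 hr the KI libraries were at 4.11, 3.05 and 2.74 against 9.25, 9.86 and 6.69 (log2 -1.38 ± 0.21, edgeR adjusted p = 3.79e-07). STAT5A KI cells had 2.05, 2.58 and 1.74 at 24 hr against 4.07, 4.36 and 4.85 (log2 -1.06 ± 0.21, edgeR adjusted p = 0.000475), which was just past 2-fold and was -0.99 without STAT5A WT replicate 3 at every time and -0.93 without STAT5A KI replicate 3 at 24 hr.

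Ncr1 and Klrg1 went the other way. Ncr1 was at 11.5, 10.4 and 8.30 in STAT5B KI cells at 48 hr against 2.10, 2.39 and 2.77 in STAT5B WT cells, 417% of the WT mean (log2 2.06 ± 0.36, edgeR adjusted p = 4.89e-06). At 0 hr the same groups overlapped, at 1.19, 0.886 and 0.957 against 0.554, 0.896 and 1.08. In the STAT5A line at 48 hr the KI libraries (9.93, 12.8 and 14.1) lay above the WT libraries (9.60, 6.95 and 3.91), but the difference stayed under 2-fold (log2 0.85 ± 0.34, edgeR adjusted p = 0.0387), except without STAT5A WT replicate 1 at 48 hr, where it was called (log2 1.18, edgeR adjusted p = 0.012). Klrg1 was at 2.16, 0.932 and 1.21 in STAT5B KI and 0.555, 0.654 and 0.80 in STAT5B WT cells at 48 hr (log2 1.10 ± 0.41, edgeR adjusted p = 0.018), and was not called without STAT5B KI replicate 1 at 48 hr (log2 0.68, edgeR adjusted p = 0.178). It was also lost without STAT5B WT replicate 1 or 2 at 48 hr (log2 0.93 and 1.04, edgeR adjusted p = 0.0826 and 0.0563). In the STAT5A line Klrg1 was at 0.632, 0.510 and 0.566 in KI and 0.739, 0.508 and 0.734 in WT cells, which overlap.

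Of the memory markers, Ly6c2 was lower in STAT5B KI than in STAT5B WT cells at 24 and 48 hr, and Cd44 was not called. Ly6c2 was at 207, 177 and 186 in STAT5B KI cells at 24 hr against 530.0, 578 and 635 in STAT5B WT cells (log2 -1.61 ± 0.24, edgeR adjusted p = 4.56e-07), and at 331, 322 and 255 against 746, 738 and 756 at 48 hr (log2 -1.30 ± 0.23, edgeR adjusted p = 8.62e-06). In STAT5A KI cells the 48 hr values were 372, 362 and 344 against 547, 688 and 621, without overlap but under 2-fold (log2 -0.78 ± 0.23, edgeR adjusted p = 0.00549). Cd44 differed in sign over time in the STAT5B line. Every KI library already lay above every WT library at 0 hr, at 37.1, 37 and 34.3 against 26.7, 28.2 and 29.1 (log2 0.366 ± 0.145, edgeR adjusted p = 0.0644). KI libraries were above WT libraries at 4 hr, at 27.8, 33.2 and 27.1 against 17.5, 18 and 17.7 (log2 0.73 ± 0.15, edgeR adjusted p = 0.000225), and below them at 48 hr, at 17.3, 19.5 and 16.2 against 25.1, 25.4 and 23 (log2 -0.47 ± 0.15, edgeR adjusted p = 0.00514). Both differences were under 2-fold.

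Whether the response to IL-2 itself differed between KI and WT cells was tested as an interaction, the log2 change from 0 hr in KI cells minus that in WT cells. At 48 hr in the STAT5B line 2 of the 10 genes were called, both higher, beside 10.3% of all tested genes. They were Ncr1, with a log2 change of 3.31 in KI and 1.52 in WT cells (difference 1.79 ± 0.54, edgeR adjusted p = 0.00527), and Klrg1, with -1.06 in KI and -2.44 in WT cells (difference 1.38 ± 0.55, edgeR adjusted p = 0.0357). The Klrg1 call was lost when any of 7 single STAT5B libraries was left out, with edgeR adjusted p from 0.0675 to 0.169. For the 5 clustered receptors the interaction at 48 hr was -0.13 ± 0.43 for Klrc1, 0.54 ± 0.40 for Klrc2, 0.37 ± 0.39 for Klre1, 0.25 ± 0.29 for Klrk1 and 0.71 ± 0.34 for Klrd1, and none was called. The largest of these, Klrd1 (edgeR adjusted p = 0.0816), was called without STAT5B KI replicate 3 at 0 hr (log2 1.01, edgeR adjusted p = 0.0157). The Cd44 interaction was -0.84 ± 0.21 (edgeR adjusted p = 0.000827), under 2-fold. By edgeR no gene of the 10 was called for this interaction at any time in the STAT5A line or at 4 and 24 hr in the STAT5B line, where 3 and 4 of the differences had an unadjusted p under 0.05. DESeq2 called 0 of them as well. Of all tested genes, 0.116%, 0.276% and 3.16% were higher and 0.225%, 1.31% and 3.09% lower by this interaction at 4, 24 and 48 hr in the STAT5A line, and 0.0964% and 3.51% were higher and 0.514% and 6.66% lower at 4 and 24 hr in the STAT5B line. At 24 hr in the STAT5B line Klrb1c was called without WT replicate 2 at 0 hr (log2 -1.06, edgeR adjusted p = 0.00856) and Klrd1 without KI replicate 3 at 0 hr (log2 1.03, edgeR adjusted p = 0.0196).

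The difference between the lines was tested as the KI effect in the STAT5B line minus that in the STAT5A line. Klrb1c was the only gene of the 10 with a call, lower by 1.41 ± 0.33 at 4 hr (log2 -2.12 against -0.71, edgeR adjusted p = 0.0103) and by 1.77 ± 0.31 at 24 hr (log2 -2.83 against -1.06, edgeR adjusted p = 7.96e-05). Among all tested genes, 0.392% and 1.27% were lower by this test at these times. For Klrc1 the difference between lines was -0.74 ± 0.43 at 24 hr (edgeR adjusted p = 0.269) and for Ncr1 1.21 ± 0.48 at 48 hr (edgeR adjusted p = 0.105), neither of which passed. Without STAT5A WT replicate 3 at every time, 8 differences between the lines were lower, and both Klrc1 at 24 hr (log2 -1.0, edgeR adjusted p = 0.043) and Ncr1 at 48 hr (log2 1.49, edgeR adjusted p = 0.0113) passed, whereas limma called 0. With the replicate number as a block, Klre1 at 24 hr (log2 -1.05, edgeR adjusted p = 0.0387) and Klrb1c at 0 hr (log2 -1.27, edgeR adjusted p = 0.0139) were called as well. In the main fit the Klrb1c difference at 0 hr was -1.28 ± 0.31 (edgeR adjusted p = 0.0764). It was called with DESeq2 (log2 -1.27, DESeq2 adjusted p = 0.017). Leaving out STAT5A WT replicate 3 or STAT5A KI replicate 1 at 0 hr also gave a call (edgeR adjusted p = 0.0373 and 0.0395). When only the groups compared were fitted, the Klrb1c difference at 4 hr was not called (log2 -1.36, edgeR adjusted p = 0.463), and that of Ncr1 at 48 hr was (edgeR adjusted p = 0.0206). Klrg1 at 48 hr, not called in the main fit (log2 1.31 ± 0.58, edgeR adjusted p = 0.149), was also called there (log2 1.31, edgeR adjusted p = 0.0315).

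The other receptors of these families were examined as a fixed list of 21 lectin-like genes. In STAT5B KI cells 9 had fallen and 1 had risen at 0 hr, and 9 had fallen and 5 had risen at 48 hr, with medians of -0.79 and -0.64. Of all tested genes 0.604% fell and 7.38% rose at 0 hr, and 9.81% fell and 16.5% rose at 48 hr. In STAT5A KI cells 1 had fallen at 0 hr (0.18% of all tested genes), and 1 had fallen and 1 had risen at 48 hr (2.43% and 6.35%). Klrc3, the neighbour and near copy of Klrc2, fell in STAT5B KI cells at 0 hr (log2 -2.05 ± 0.42, edgeR adjusted p = 0.000451), as did the Ly49 receptor gene Klra7 (log2 -2.81 ± 0.33, edgeR adjusted p = 1.82e-07). Ly49 genes are themselves a family of near copies, so counts of single members are uncertain. At 48 hr Klra7 was at 17.1, 16.5 and 17.9 in STAT5B KI and 58.3, 78.7 and 31.5 in STAT5B WT cells, and Klra5 at 0.145, 0.252 and 0.385 against 1.70, 3.10 and 1.09 (log2 -2.90 ± 0.46, edgeR adjusted p = 1.01e-06). Klrb1b, an inhibitory relative of Klrb1c, was higher instead, at 4.44, 4.99 and 4.04 against 0.836, 0.757 and 0.676 in WT cells (log2 2.57 ± 0.30, edgeR adjusted p = 3.28e-09). Cd69, an early activation marker, fell at 48 hr, with 21.7, 24.9 and 20.5 against 52.4, 52.1 and 53.8 (log2 -1.24 ± 0.22, edgeR adjusted p = 1.02e-05). The KLRE1 partner genes Klri1 and Klri2 were called in neither line at 0 or 48 hr.

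Of 14 other NK cell receptor genes, 3 had risen and 2 had fallen in STAT5B KI cells at 48 hr, shares not far from the 16.5% and 9.81% of all tested genes. Cd7 and the Fc receptor gene Fcgr3 were the largest rises (log2 2.10 ± 0.16 and 2.95 ± 0.36), and Pilrb1 and Gp49a fell (log2 -2.04 ± 0.39 and -1.66 ± 0.25). All 4 of these were called in the same direction in the STAT5A line. Fcgr3 is also a myeloid gene, and the myeloid marker sums were higher in these KI libraries. Of 14 adaptors and proximal signalling genes, 4 were higher in STAT5B KI than in STAT5B WT cells at 48 hr. Among them were Syk (log2 3.18 ± 0.30), Tyrobp (log2 2.07 ± 0.32) and Sh2d1b1 (log2 2.02 ± 0.37). Syk and Tyrobp are expressed in B or myeloid cells as well. The lists overlap, so their counts are not separate results. Tyrobp and Sh2d1b1 are also among the 14 NK cell markers, as are Klrb1b and Klra7 of the lectin-like list. Fcgr3 is also among the monocyte and macrophage markers. Hcst, the adaptor of NKG2D, was not called (log2 0.84 ± 0.18), nor were the most abundant genes Ptpn6 and Zap70. Among 12 ligand genes 4 had risen and 2 had fallen. The Qa-1 gene H2-T23, which encodes the ligand of CD94 with NKG2A, was not called (271, 266 and 251 in STAT5B KI and 208, 199 and 216 in STAT5B WT cells, log2 0.34 ± 0.08). The Klrg1 ligand gene Cdh1 was higher in STAT5B KI cells (log2 1.54 ± 0.27), as was Clec2d (log2 1.24 ± 0.14). Raet1a, which encodes an NKG2D ligand, was lower (log2 -1.72 ± 0.42). Its levels were very low, at 0.0616, 0.202 and 0.0754 in STAT5B KI and 0.422, 0.332 and 0.384 in STAT5B WT cells.

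Memory-phenotype genes outside the 10 were examined next. Of 24 such genes, 13 rose and 3 fell at 48 hr with IL-2 in STAT5A WT cells and 12 rose and 4 fell in STAT5B WT cells, where 14.3% and 14.6% of all tested genes rose and 22.3% and 20.7% fell. Between STAT5B KI and WT cells at 48 hr, 4 had risen and 6 had fallen, beside 16.5% and 9.81% of all tested genes, so that the share that rose was that of the background. Il2rb, which encodes the IL-2 receptor beta chain, had fallen to 174, 198 and 150 from 523, 516 and 494 in WT cells (log2 -1.56 ± 0.16, edgeR adjusted p = 1.19e-10). Fasl and the transcription factor genes Eomes and Tbx21 had fallen as well (log2 -1.68 ± 0.25, -1.01 ± 0.18 and -1.17 ± 0.15), and so had Ly6c1 (log2 -1.23 ± 0.15). The granzyme gene Gzmk (log2 2.62 ± 0.66), Il7r (log2 2.05 ± 0.18), Itga4 (log2 1.67 ± 0.14) and Ccl5 (log2 1.17 ± 0.28) had risen. Of 10 genes of naive T cells, 4 were higher in STAT5B KI than in STAT5B WT cells at 48 hr. They were S1pr1, Klf2, Tcf7 and Lef1, with log2 differences from 1.06 to 1.55. The targeted genes themselves were not called in any KI comparison at 0 or 48 hr (Stat5b log2 0.47 ± 0.11 and Stat5a 0.12 ± 0.08 in the STAT5B line at 48 hr). The codon change, and the silent base changes made beside it, cannot be checked from gene counts.

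Other cell types moved with these differences. At 48 hr in the STAT5B line, 6 of 6 B cell markers, 10 of 11 monocyte and macrophage markers, 5 of 5 dendritic cell markers, 3 of 3 CD4 T cell markers and 3 of 4 neutrophil markers had risen in KI cells, as had Zbtb16, the single marker of NKT and innate-like T cells. In STAT5A KI cells the counts were 6, 8, 5, 2 and 1, and Zbtb16 had also risen. Of all tested genes, 16.5% rose and 9.81% fell in STAT5B KI cells at this time, and 6.35% rose in STAT5A KI cells. Cd79a of B cells was at 54.5, 54.3 and 56.6 against 4.18, 3.31 and 3.61 in STAT5B WT cells, and Lyz2 of myeloid cells at 62.9, 39.6 and 48.7 against 0.955, 0.929 and 2.06. Of the 14 NK cell markers outside the 10 genes, 5 had risen and 1 had fallen in the STAT5B line at 48 hr and 2 had risen and 5 had fallen at 0 hr, where 7.38% of all tested genes rose and 0.604% fell. The abundant NK granzyme gene Gzma was not called at 48 hr (log2 -0.40 ± 0.42). What part these shifts in other cells had in the levels of the 10 genes was not tested.

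Finally, the pattern of each gene over the 16 group means was set beside that of every other tested gene, as Pearson's r of log2 normalized RPKM. These are descriptions, since the 16 groups are not independent: they share times, lines and genotypes. Klrc1, Klrc2, Klrk1 and Klre1 ran together, with r from 0.881 to 0.978, and Klrb1c followed them with r from 0.765 to 0.906. Klrd1 reached no more than 0.429 with any of the other 9. Ncr1 and Klrg1 ran in opposite directions (r = -0.719). Among all tested genes, the pattern most like that of Klrc2 was Klrc3 (r = 0.982), and that most like Ly6c2 was its near copy Ly6c1 (r = 0.996). Klrb1c was most like Klra7 (r = 0.961), Klre1 like Klrc2 (r = 0.978), and Klrk1 like Klrc2 (r = 0.934). The other closest genes were Klrc3 for Klrc1 (r = 0.958), Ccl5 for Klrg1 (r = 0.943), Plek for Cd44 (r = 0.951), Col23a1 for Ncr1 (r = 0.890) and Gm20752 for Klrd1 (r = 0.854). With deposited RPKM the gene closest to Ncr1 was Klrb1a (r = 0.924), and 1 of its 3 closest genes was shared between the scales.

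**Figure D5:**
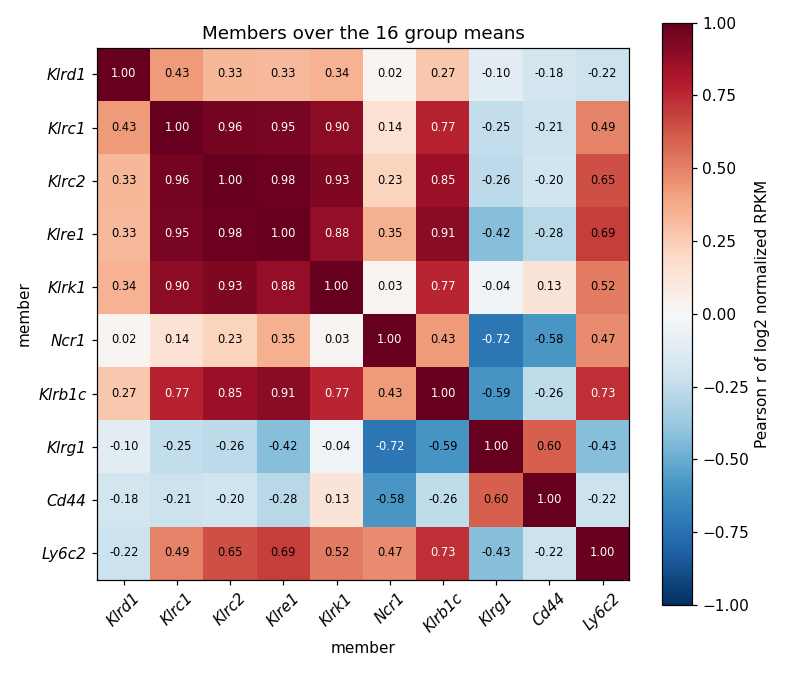
Pearson's r of log2 normalized RPKM between the 10 genes over the 16 group means, as a colour for each pair. Klrc1, Klrc2, Klrk1, Klre1 and Klrb1c form a block with r of at least 0.765, and Klrd1 stands outside it.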

How the data were processed

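RNA-seq was made from splenic CD8+ T cells. Per the labels and the methods, the authors aligned reads with TopHat2 2.0.11 to mm10 (GRCm38), kept uniquely mapped reads and counted them over RefSeq exons. Bowtie2 2.2.6, SAMtools 0.1.8 and bedtools 2.25.0 are also listed in the submitters' processing notes, and the methods name Bowtie2 for the chromatin experiment. The counting program and strand setting are not given in the sources used here. Each deposited table holds raw read counts and RPKM per transcript, and the authors scaled the RPKM values to mapped reads. A further library of a chromatin experiment is not analysed here.

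Counts of the longest transcript of each symbol were tested with edgeR 4.0.16 in R 4.3.3 (TMM, filterByExpr with a minimum count of 10, 1 quasi-likelihood fit of the 16 groups, prior count 1), and the test was checked on simulated counts. Calls required both a Benjamini-Hochberg adjusted p up to 0.05 and a change of 2-fold or more. Levels are reads divided by transcript length and TMM-normalized library size, and deposited RPKM was the alternative. The 10 genes and all lists were chosen with earlier results of these data known. All 10 genes are named. Per other list, the text names at most 4 called genes with the largest change at 48 hr in the STAT5B line and the 2 most abundant, and per gene the 3 closest patterns were sought. Klrc3, Klri1, Klri2, Hcst, Eomes, Tbx21 and Ly6c1 were named after their values were seen. Alternatives were DESeq2 1.42.0, limma 3.58.1 on log2(RPKM + 1), DESeq2 size factors, no count filter, the transcript with most reads, all 48 libraries, only the groups compared, a replicate block, and leaving out each library. Same-numbered libraries deviated together (every correlation over 0.1) in 2 of 20 comparisons, those of STAT5A WT cells at 24 and 48 hr against 0 hr. Replicate 3 of STAT5A KI at 4 hr had 5.68% of its mapped reads on the longest transcripts and was left out.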

Additional observations from a re-analysis of the deposited data

Results flagged for a closer look

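In the STAT5B line, the response to 48 hr of IL-2 differed between KI and WT cells by the interaction test for Ncr1 (log2 difference 1.79, higher in KI cells) and for Klrg1 (1.38, a smaller fall in KI cells). All 3 KI libraries lay above all 3 WT libraries at 48 hr for both genes. The Klrg1 interaction was lost when any of several single STAT5B libraries was left out, among them KI replicate 1 at 48 hr, while that of Ncr1 was kept in each of these. Monocyte and B cell markers were also higher in these KI libraries. Of 14 NK cell markers outside the 10 genes, 5 had risen and 1 had fallen (16.5% and 9.81% of all tested genes). Klrb1b (log2 2.57) and Sh2d1b1 (log2 2.02) were among those that rose. The marker that fell was Klra7 (log2 -1.71), and the abundant Gzma was not called (log2 -0.40). Klrb1c, the NK1.1 gene, was lower in these KI libraries, at 38.4% of the WT mean. The NK and myeloid gene Fcgr3 was higher by 2.95. The part of these cells was not tested.

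The KI effect on Klrb1c differed between the lines by the test of the difference itself, by -1.41 on the log2 scale at 4 hr and by -1.77 at 24 hr, lower in the STAT5B line at both times. At 4 hr the STAT5A KI group had 2 libraries, and the difference was not called when only the groups compared were fitted (log2 -1.36, edgeR adjusted p = 0.463). With limma neither was called (log2 -0.89 and -0.99).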

How the results depend on the processing

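No difference of the 10 genes reversed its direction under the alternatives run where it was called. With DESeq2 and with DESeq2 size factors every count of calls stayed within 1.5 times of the reported one. In STAT5B KI against WT, 20 to 22 genes and times were lower (21 reported) over the alternatives, with Klrk1 lost at 0 hr with limma and gained at 48 hr without 1 of 2 single libraries. With limma on log2(RPKM + 1), which understates changes of low genes, fewer passed: 5 lower in STAT5A KI against WT (12 reported), 1 higher in STAT5B KI against WT (2), 1 lower with IL-2 in STAT5A WT (4), 2 lower in STAT5A KI (5), 2 lower in STAT5B KI (4), 1 higher interaction in the STAT5B line (2) and 0 lower between lines (2). With all 48 libraries there was 1 gene higher in STAT5A KI (0 reported, Cd44 at 4 hr), 2 lower with IL-2 in STAT5B KI (4) and 1 higher interaction in the STAT5B line (2). Fits of only the groups compared gave 6 lower in STAT5A KI (12), 2 higher between lines (0) and 1 lower between lines (2), and fits with no filter on low counts 2 lower with IL-2 in STAT5B KI (4).

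The fit with the replicate number as a block gave 4 lower between lines (2 reported, Klrb1c at 0 hr and Klre1 at 24 hr added) and changed no other call. Leaving out single libraries gave 7 to 11 higher with IL-2 in STAT5A WT (7 reported) and 6 to 10 in STAT5B WT (6), 2 to 5 lower with IL-2 in STAT5B KI (4), 0 to 1 higher and 9 to 12 lower in STAT5A KI against WT (0 and 12), 1 to 3 higher in STAT5B KI against WT (2), 1 to 3 higher and 0 to 1 lower interactions in the STAT5B line (2 and 0), and 0 to 1 higher and 2 to 3 lower between lines (0 and 2). Leaving out replicate 3 of STAT5A WT at every time (4 libraries), a choice made after seeing the data, gave 8 lower in STAT5A KI against WT and 8 lower between lines. Of 160 group means, 67.5% moved by more than 1 SD with the deposited RPKM, which was 0.578 to 0.836 times the normalized value. Klrg1, Klrc2 and Ncr1 rested on as few as 25, 25 and 29 reads in a library (medians 60, 140 and 104), so small differences in them may have been missed. The size of difference that could be detected was not tested.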
